A study of Mus musculus with 24 samples.

Results

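Dnm3os is a long non-coding RNA read from the strand opposite to the dynamin gene Dnm3, and it was examined here with Dnm3 and with 7 transcription factors of mesenchymal cells: Twist1, Twist2, Prrx1, Snai1, Snai2, Zeb1, and Zeb2. The 9 genes were taken by name from the 56941 genes of the deposited tables. They had been chosen with results of these libraries known, so the differences between conditions that are given for them are a description and carry no test. Of the 9, 8 passed the filter on low counts and were fitted together with all 13315 genes that passed it. Twist1 did not pass.

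The tissues were sheets of C2C12 cells, an established line of mouse myoblasts, which fuse into twitching myotubes in culture. All 24 carried the ChR2::tdTomato construct, a light-gated channel that starts a contraction when lit, and all were grown in differentiation medium with horse serum and IGF-1. Controls were not stimulated, and the other groups were lit for 60 min daily at 1, 4, or 10 Hz, with 6 biological replicates per group. The libraries hold 8052369 to 18159144 estimated counts each. As a model, C2C12 is a single line in monolayer without vessels, nerves, or the other cells of muscle, and the unstimulated tissues contract spontaneously according to the study's text.

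Twist factors are basic helix-loop-helix proteins that pair with E proteins on E-box DNA, and they are known to hold back myogenic factors. Snail and Zeb factors are zinc finger repressors, known for silencing the cadherin gene Cdh1 in cells that turn mesenchymal. Dnm3os is the precursor of miR-199a and miR-214, and in the mouse embryo Twist1 is known to drive it.

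Dnm3os (ENSMUSG00000078190) lies at chr1:162045192-162053119 on the plus strand of GRCm39. It sits in an intron of 97087 bases of Dnm3 (ENSMUSG00000040265, chr1:161810022-162305616, minus strand), which is intron 14 of transcript Dnm3-201. No base of its exons overlaps an exon of Dnm3, so the exon overlap is 0 bases. Prrx1 (ENSMUSG00000026586, chr1:163041844-163142033, minus strand) is on the same chromosome, 988725 bases beyond the end of Dnm3os. The annotation gives Dnm3os a pair of unspliced transcripts of 7928 and 7926 bases and 4 spliced ones of 282 to 992 bases. The hairpin of Mir199a-2 begins 191 bases after the start of Dnm3os and that of Mir214 5745 bases after it.

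**Figure D1:**
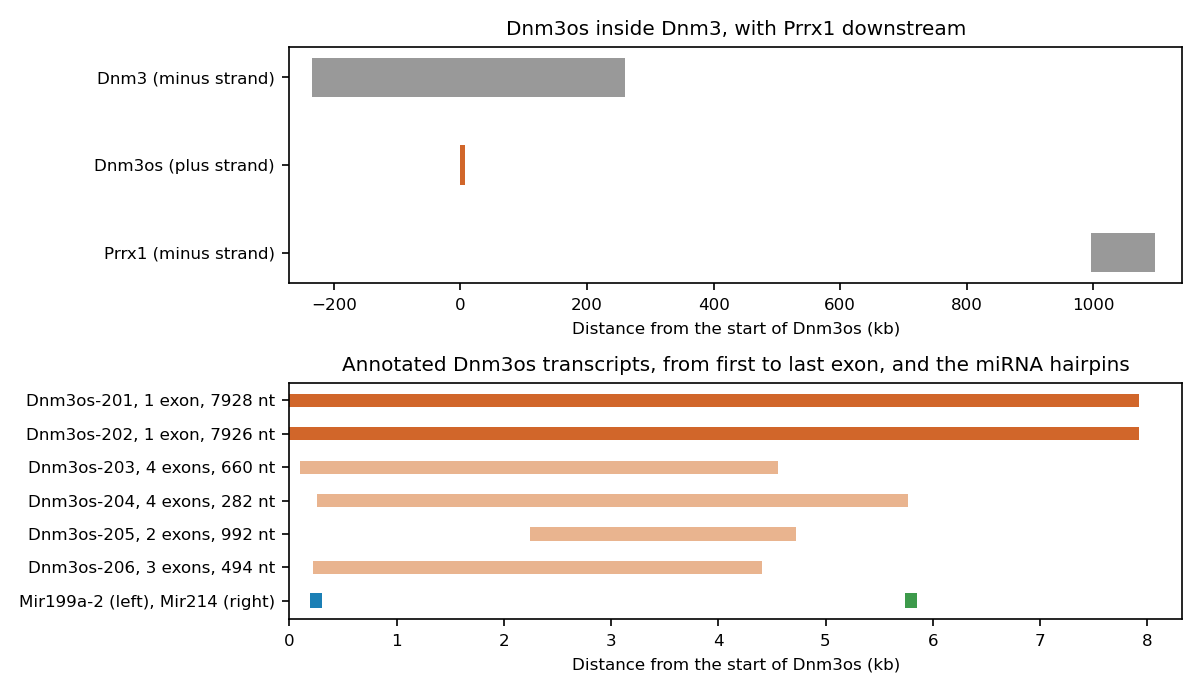
Map of the Dnm3os locus with distance from the start of Dnm3os in kb on both x axes. The upper panel shows the whole genes Dnm3, Dnm3os, and Prrx1, and the lower panel the 6 annotated Dnm3os transcripts drawn from first to last exon (introns included, spliced length in the label) with the miRNA hairpins, both of which lie inside the 7928-base transcript.

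The mature miRNAs of these hairpins are what the Dnm3os transcript is known for, so their RefSeq sequences are shown, with the seed (bases 2 to 8) in capitals. The mature sequences lie at chr1:162045413-162045435, chr1:162045452-162045473, chr1:162050966-162050987, and chr1:162051007-162051028 of GRCm39, in the order printed, all on the plus strand.
mmu-miR-199a-5p: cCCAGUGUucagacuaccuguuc
mmu-miR-199a-3p: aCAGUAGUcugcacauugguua
mmu-miR-214-5p: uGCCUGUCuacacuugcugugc
mmu-miR-214-3p: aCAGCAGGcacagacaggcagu
No seed is shared between the 4. The hairpin genes Mir199a-2 and Mir214 had an estimated count of 0 in all 24 libraries. Mature miRNAs are not what such libraries of longer RNA measure, so the counts of the hairpin genes set no limit on them.

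The window around the start of Dnm3os, 250 bases before to 50 after, is shown because Twist factors bind E-boxes and because the gene stands at different levels between the conditions. The sequence is that of RefSeq (table build GRCm38.p6), found by exact match at chr1:162044942-162045241 of GRCm39, plus strand. Capitals mark E-boxes (CANNTG, the same on both strands) and the CArG box, the site known for serum response factor.
Dnm3os: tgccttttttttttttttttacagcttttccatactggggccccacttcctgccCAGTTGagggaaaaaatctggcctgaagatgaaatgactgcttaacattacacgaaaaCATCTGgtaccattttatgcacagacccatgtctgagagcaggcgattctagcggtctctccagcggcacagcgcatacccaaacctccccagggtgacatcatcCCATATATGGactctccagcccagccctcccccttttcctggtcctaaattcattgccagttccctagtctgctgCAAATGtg
The window holds 3 E-boxes, CAGTTG 196 bases before the start, CATCTG 138 bases before it, and CAAATG 42 bases after it. At least 1 E-box stands in 72.3% of the 32851 windows of the table. The CArG box begins 33 bases before the start, overlaps no E-box, and is found in 1.63% of the windows. It was looked for after the sequence had been seen. The site CAGGTG, or on the other strand CACCTG, which Snail and Zeb factors are known to bind and which is itself an E-box, is not in this window and is in 20.2% of all windows. Among the 7 members with a window in the table, Snai1 has a CAGGTG site, and Dnm3 has 2 E-boxes of other letters. Twist1, Twist2, Prrx1, and Zeb2 have no E-box in theirs. A match of letters says nothing about binding in these tissues.

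Dnm3os counts were low, and they were lowest at 1 and 4 Hz. In controls the estimated counts of Dnm3os ranged from 29 to 109 per library (median 49). At 1 Hz they ranged from 0 to 11 (median 7.5), and at 4 Hz from 0 to 8 (median 2.5). At 10 Hz they ranged from 16 to 33 (median 26.5). Every library at 1 and 4 Hz lay below every control and every 10 Hz library.

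Scaled for library size as CPM with TMM factors, the level of Dnm3os was 4.02 ± 1.31 (SD, n = 6) in controls. It was 0.598 ± 0.326 at 1 Hz and 0.342 ± 0.266 at 4 Hz. At 10 Hz it was 2.61 ± 0.476. The order of the levels was thus control, 10 Hz, 1 Hz, and 4 Hz, and the neighbours control and 10 Hz overlapped, as did 1 and 4 Hz. The lowest control stood at 2.72 CPM and the highest 1 Hz library at 0.925 CPM. A single library at 1 Hz and another at 4 Hz had no count of Dnm3os, which at their depths allows up to 0.268 and 0.382 CPM (3 counts).

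In the fit of all genes, the log2 fold change of Dnm3os against controls was −2.76 (SE 0.34) at 1 Hz and −3.50 (SE 0.39) at 4 Hz, or 6.76-fold and 11.3-fold lower. At 10 Hz it was −0.64 (SE 0.28), with 3 of 6 libraries below every control. Against 1 Hz, Dnm3os at 10 Hz was higher by 2.12 (SE 0.36) on the log2 scale, and against 4 Hz by 2.86 (SE 0.41). The difference between 4 and 1 Hz was −0.74 (SE 0.50). The same 6 control libraries enter each comparison with the controls. In bulk RNA, fewer cells that express a gene and less of its RNA per cell cannot be told apart.

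Dnm3, which encodes a dynamin, a GTPase that cuts vesicles from membranes, overlapped between all conditions, unlike the transcript on its other strand. Its counts per library ranged from 26 to 79. Its level was 4.34 ± 0.681 CPM in controls, 4.51 ± 0.540 with 1 Hz, 4.58 ± 0.860 with 4 Hz, and 4.13 ± 0.642 with 10 Hz (SD, n = 6 each). For Dnm3 the log2 fold change was 0.05 with 1 Hz, 0.07 with 4 Hz, and −0.08 with 10 Hz (SE 0.14 each). The other dynamin genes, Dnm1, Dnm2, and Dnm1l, gave 0 calls of 3 at each frequency. Dnm1l, which cuts mitochondria, was lower at 1 and 4 Hz by less than the fold limit (−0.43, SE 0.07, and −0.48, SE 0.07).

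**Figure D2:**
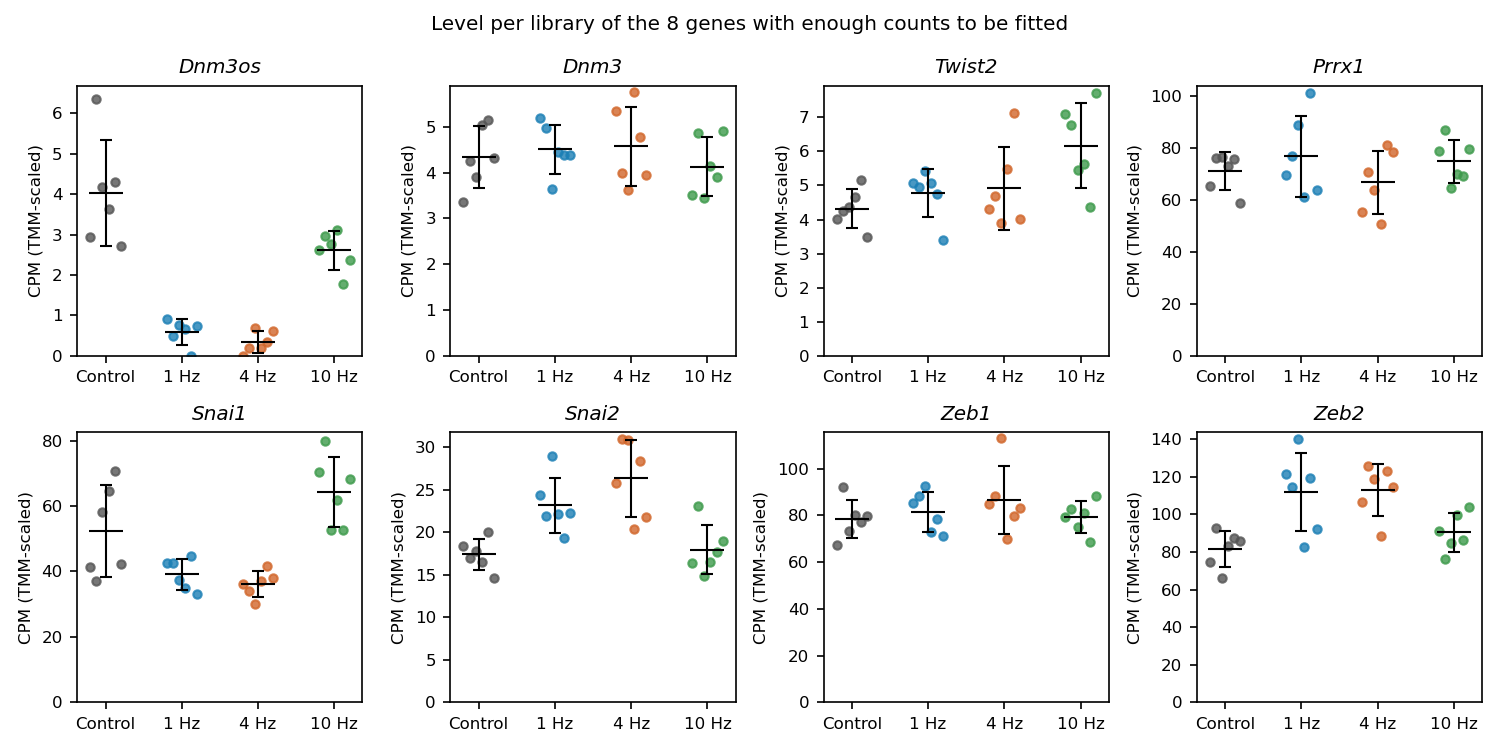
Level in each library (CPM scaled with TMM factors, y axis from 0) of the 8 members that passed the filter, by condition on the x axis, with points for libraries and black bars for the mean ± SD of 6. Dnm3os at 1 and 4 Hz lies under 0.925 CPM while controls lie above 2.72 CPM, and Dnm3 overlaps across all conditions.

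Twist1 (ENSMUSG00000035799, chr12:34007645-34009828) was next to absent. It had 1 estimated count in 4 of the 24 libraries and 0 in the other 20, including all 6 at 4 Hz, where 0 allows up to 0.418 CPM (3 counts in the library with the highest such limit). Twist2 (ENSMUSG00000007805, chr1:91729176-91796542), the relative of Twist1 in dermis and bone precursors, was present at 28 to 91 counts per library.

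The level of Twist2 was 4.32 ± 0.568 CPM in controls, 4.78 ± 0.705 with 1 Hz, 4.92 ± 1.22 with 4 Hz, and 6.17 ± 1.24 with 10 Hz (SD, n = 6 each). At 10 Hz, where the lowest, median, and highest libraries were at 4.36, 6.21, and 7.70 CPM, 5 of 6 libraries lay above every control (highest control 5.15 CPM). Its log2 fold change was 0.52 (SE 0.15) at 10 Hz, against 0.14 (SE 0.16) at 1 Hz and 0.18 (SE 0.16) at 4 Hz. Twist2 is thus placed in another order over the conditions than Dnm3os, with the highest mean at 10 Hz.

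Prrx1, a homeobox factor of limb and facial mesenchyme, was at 70.9 ± 7.30 CPM in controls, 76.8 ± 15.6 with 1 Hz, 66.6 ± 12.3 with 4 Hz, and 74.8 ± 8.33 with 10 Hz. The conditions overlapped. Its log2 fold changes were 0.11 (SE 0.12), −0.09 (SE 0.12), and 0.08 (SE 0.12) at 1, 4, and 10 Hz.

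At 1 and 4 Hz the Snail genes lay on opposite sides of their control means. Snai1 (ENSMUSG00000042821, chr2:167380113-167384734), the founding repressor of the family, was at 52.3 ± 13.9 CPM in controls, 39.2 ± 4.74 with 1 Hz, 36.2 ± 3.91 with 4 Hz, and 64.3 ± 10.7 with 10 Hz. The lowest, median, and highest controls of Snai1 were 37.2, 50.2, and 70.6 CPM, against 30.1, 36.6, and 41.7 CPM at 4 Hz. Thus 4 of 6 libraries at 4 Hz lay below every control, and the controls themselves were widely spread. The log2 fold change of Snai1 was −0.42 (SE 0.14) at 1 Hz, −0.53 (SE 0.14) at 4 Hz, and 0.30 (SE 0.14) at 10 Hz.

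Snai1 at 10 Hz lay apart from 1 and 4 Hz, while its 1 and 4 Hz libraries overlapped (log2 fold change of 4 against 1 Hz −0.11, SE 0.14). Its lowest 10 Hz library, at 52.6 CPM, lay above the highest 1 Hz library at 44.7 CPM and the highest 4 Hz library. Snai1 at 10 Hz was higher than at 1 Hz by 0.72 (SE 0.14) and than at 4 Hz by 0.83 (SE 0.14) on the log2 scale.

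Snai2 (ENSMUSG00000022676, chr16:14523425-14527252), or Slug, a factor also known in satellite cells, was lowest in controls at 17.4 ± 1.85 CPM and highest at 4 Hz at 26.4 ± 4.52 CPM. It stood at 23.2 ± 3.25 CPM at 1 Hz and 18.0 ± 2.90 at 10 Hz. Controls of Snai2 ran from 14.7 to 20.1 CPM (median 17.4), and all 6 libraries at 4 Hz, from 20.4 to 30.9 CPM (median 27.1), lay above them, as did 5 of 6 at 1 Hz. Its log2 fold change was 0.41 (SE 0.12) at 1 Hz, 0.59 (SE 0.12) at 4 Hz, and 0.04 (SE 0.12) at 10 Hz.

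The balance between both Snail genes can be read within each library, as the share of Snai1 in their summed TPM, which is a level per transcript length within the library. That share does not depend on how libraries are scaled, but it restates the differences of the same genes. It was 78.7 ± 4.03% in controls, 68.3 ± 4.40% with 1 Hz, 63.8 ± 5.74% with 4 Hz, and 82.0 ± 1.72% with 10 Hz (SD, n = 6 each). The highest share of Snai1 at 4 Hz was 69.9%, below the lowest control at 73.7%, and the highest at 1 Hz was 74.7%. How often the shares of other gene pairs separate in this way was not tested. Snai1 was the more abundant of the pair in all 24 libraries, with a lowest share of 55.5%.

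The Zeb genes encode large repressors with a homeodomain and zinc fingers. Zeb1 (ENSMUSG00000024238), known to sit at E-boxes of muscle genes in myoblasts, was at 78.3 ± 8.21 CPM in controls, 81.5 ± 8.61 with 1 Hz, 86.5 ± 14.5 with 4 Hz, and 79.3 ± 6.80 with 10 Hz. Its log2 fold changes were 0.05 (SE 0.10), 0.14 (SE 0.10), and 0.02 (SE 0.10) at 1, 4, and 10 Hz. The libraries of all conditions overlapped for Zeb1.

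Zeb2 (ENSMUSG00000026872, chr2:44873644-45007464, minus strand) was at 81.5 ± 9.59 CPM in controls, 112 ± 20.8 with 1 Hz, 113 ± 13.7 with 4 Hz, and 90.4 ± 10.2 with 10 Hz. Its controls ran from 66.1 to 92.6 CPM (median 84.3), and 4 of 6 libraries at 1 Hz and 5 of 6 at 4 Hz lay above all of them. Its log2 fold changes were 0.45 (SE 0.11), 0.47 (SE 0.11), and 0.15 (SE 0.11). The share of Zeb1 in the summed TPM of both Zeb genes was 48.2 ± 2.66% in controls, 42.2 ± 3.05% with 1 Hz, 41.4 ± 2.01% with 4 Hz, and 46.5 ± 3.50% with 10 Hz.

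**Figure D3:**
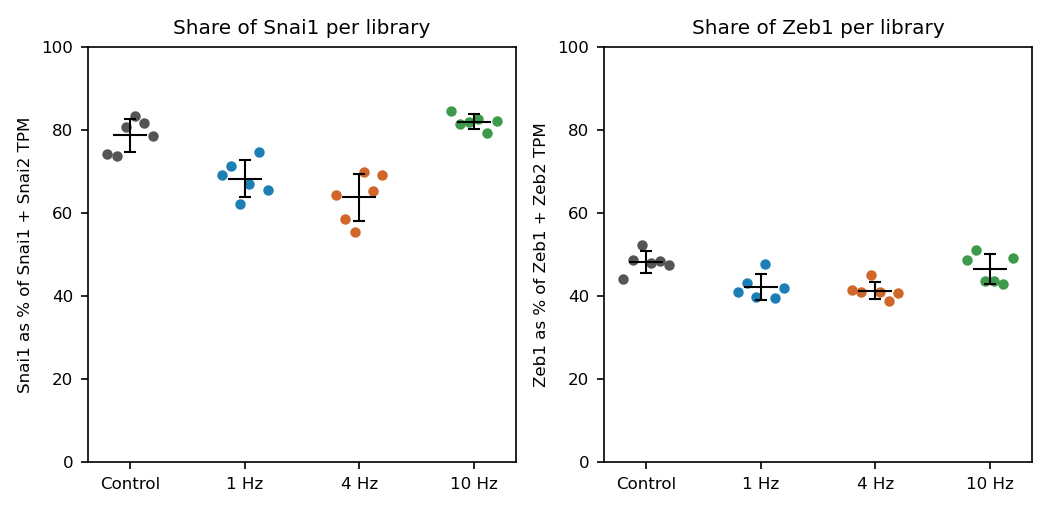
Share of Snai1 in the TPM of Snai1 plus Snai2 (left) and of Zeb1 in the TPM of Zeb1 plus Zeb2 (right), in percent, for each library by condition, with the mean ± SD of 6 as black bars. The Snai1 share at 4 Hz (highest 69.9%) lies below every control (lowest 73.7%), and the mean Zeb1 share is 41.4% at 4 Hz against 48.2% in controls.

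Annotated genes overlap some of these loci. Zeb2os shares 871 exonic bases with Zeb2 on the other strand and had 412 counts over the 24 libraries, Zeb1os1 shares 198 bases with Zeb1 and had 156 counts, and Gm29100 shares 1484 bases with Twist2 and had 52 counts. The kit marks strand according to the study's methods, and whether the counting used it is not given in the sources used here. The values of Zeb2, Zeb1, and Twist2 are uncertain to that extent. So are those of Dnm3os, which lies in an intron of Dnm3 on the other strand, if unspliced Dnm3 RNA was sequenced. This was not tested.

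A gene was called here at a Benjamini-Hochberg adjusted p under 0.05 over all tested genes in edgeR with an absolute log2 fold change over 0.5. Among the 8 members fitted, 1 was past this rule at 1 Hz (Dnm3os), where 14.9% of all tested genes were. At 4 Hz, 3 were past it (Dnm3os and Snai1 lower, Snai2 higher), where 25.1% of all tested genes were. None of the 8 was past it at 10 Hz, where 0.0376% of all tested genes were. Zeb2, with log2 fold changes of 0.45 and 0.47, and Snai1 and Snai2 at 1 Hz lay just under the fold limit of 0.5. Since the members were chosen on these comparisons, nothing is read from the counts.

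Libraries of 1 Hz lay wholly below the controls for 8.58% of all tested genes, and libraries of 4 Hz for 14.7%. They lay wholly above the controls for 5.55% at 1 Hz and 12.9% at 4 Hz. At 10 Hz these shares were 0.864% below and 0.774% above. Against 1 Hz, where 10.8% of tested genes were called at 10 Hz, the called members were Dnm3os and Snai1, both higher at 10 Hz, and libraries lay wholly above those of 1 Hz for 5.03% of all tested genes. Against 4 Hz, where 21.2% were called, they were Dnm3os and Snai1, higher at 10 Hz, and Snai2, with a log2 fold change of −0.55 (SE 0.12), and 10.8% of all tested genes lay wholly above the 4 Hz libraries.

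**Figure D4:**
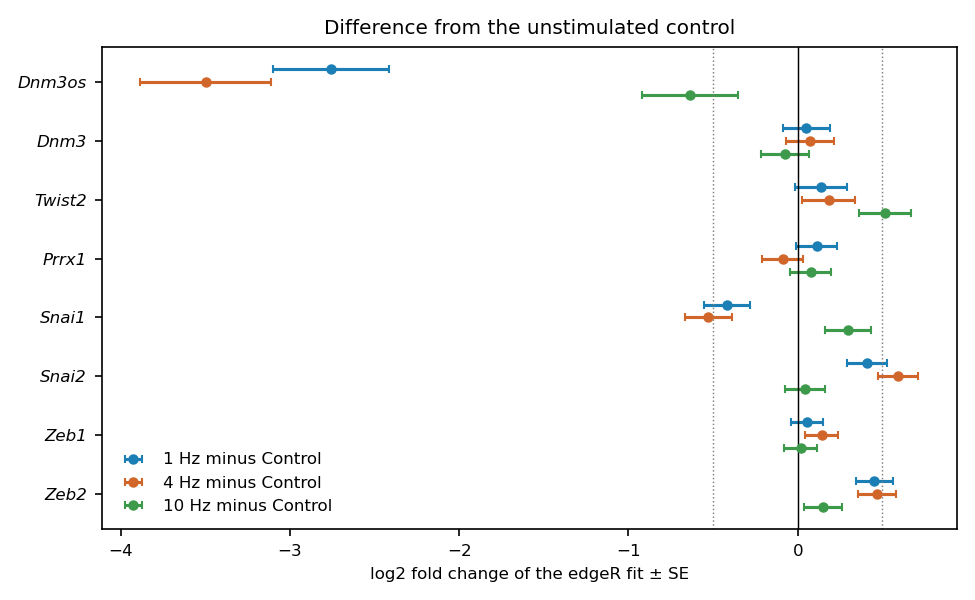
Log2 fold change against the unstimulated control (x axis, edgeR fit of all tested genes, points with bars of ± SE) of the 8 fitted members at 1, 4, and 10 Hz. Dotted lines mark ±0.5. Dnm3os lies at −2.76, −3.50, and −0.64, while the other 7 members lie between −0.53 and 0.59.

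Levels of different genes can be compared per length, in TPM. In controls Snai1 was highest at 55.3 ± 15.8 TPM, followed by Prrx1 at 35.4 ± 4.29, Zeb2 at 24.5 (range 20.2 to 29.6), and Zeb1 at 22.9 TPM (range 18.3 to 28.2). Neighbours in that series overlapped across the 6 controls. Snai2 at 14.3 ± 1.75 TPM lay below all of these without overlap, and Twist2 at 5.73 ± 0.840 and Dnm3 at 4.49 ± 0.987 TPM overlapped each other. Dnm3os was at 0.891 ± 0.499 TPM, below every control value of Dnm3, and Twist1 at 0.0315 ± 0.0488 TPM.

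The TPM of Dnm3os did not follow its counts, since the length that the quantification assigned to it differed between libraries. The estimated count divided by TPM, relative to the median gene of the same library, was 3.44 to 3.55 in 16 of the 22 libraries with a count. In the other 6 it was 0.385 to 2.25, so that part of the reads had been assigned to shorter transcripts there. For example, the 1 Hz library with 11 counts (ratio 0.385) had 0.840 TPM, while a control with 47 counts (ratio 3.45) had 0.855 TPM. At 10 Hz, 25 counts gave 0.581 TPM in 1 library (ratio 3.44) and 1.96 TPM in another (ratio 0.872). The mean TPM of Dnm3os at 10 Hz was 0.977 ± 0.788 and that of controls 0.891 ± 0.499, an order opposite to the CPM.

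In scaling, 4 libraries stood apart. The TMM factor was 0.904 and 0.931 in 1 Hz replicates 4 and 6 and 0.869 and 0.930 in 4 Hz replicates 3 and 4, and between 0.968 and 1.07 in the other 20 libraries. The labels say that low-input samples were ribodepleted, not which ones. Without those 4 libraries the log2 fold change of Dnm3os was −2.95 at 1 Hz and −3.63 at 4 Hz, that of Snai1 −0.32 and −0.50, that of Snai2 0.44 and 0.59, and that of Zeb2 0.60 and 0.50.

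On log2(TPM + 1) the median of all tested genes shifted by −0.14 at 1 Hz and by −0.21 at 4 Hz, against 0.04 and 0.06 with TMM. On that scale Snai1 was at −0.58 and −0.80, Snai2 at 0.18 and 0.24, and Zeb2 at 0.16 and 0.14. Prrx1 (−0.24 and −0.50), Zeb1 (−0.17 and −0.24), Twist2 (−0.06 and −0.14), and Dnm3 (−0.12 and −0.07) were all below 0 there, and all but Prrx1 at 4 Hz had been above 0 with TMM.

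Whether libraries of one condition with more Dnm3os also had more of another member was tested after removing the mean of each condition, which leaves the differences between conditions out. Of 7 pairs over 24 libraries, 0 passed a two-sided permutation test within conditions after adjustment over the pairs, and 0 had an unadjusted p under 0.05. Pearson's r ran from −0.19 (Dnm3) to 0.36 (Zeb1), and Spearman's rho for Zeb1 was 0.36 (permutation p = 0.151 for r and 0.110 for rho, adjusted p = 0.686 and 0.652). Without the 2 libraries farthest from the median of Dnm3os, both of which had a count of 0, r for Zeb1 was 0.55 (permutation p = 0.0279, adjusted p = 0.195). That for Prrx1 moved from −0.01 to 0.36 (permutation p = 0.176, adjusted p = 0.615). Dnm3os had only 0 to 11 counts per library at 1 Hz and 0 to 8 at 4 Hz. Counting error there limits what the test could find, so the lack of passes does not show that links are absent.

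Over the 24 libraries, the genes whose log2 CPM was most like that of Dnm3os were the zinc finger gene Zkscan3 (Pearson r = 0.92), the muscle long non-coding RNA Lincmd1 (0.92), the cytokine gene Clcf1 (0.91), Trim59 (0.91), and Bace1, the beta-secretase (0.91). The points share libraries and conditions, so these values describe the pattern over conditions. Lincmd1, like Dnm3os, is the host transcript of miRNAs, and it stood at 4.11 ± 1.13 CPM in controls, 1.23 ± 0.418 with 1 Hz, 1.21 ± 0.380 with 4 Hz, and 3.73 ± 0.746 with 10 Hz. Of the members, Snai1 had r = 0.60 with Dnm3os, while Snai2 and Zeb2 had −0.63 each. With condition means removed, the highest values were those of Gm49759 (0.81), Mfap5 (0.74), Nat2 (0.73), the cyclin gene Ccna2 (0.73), and Wnt5a (0.71). These are the extremes of a search over all 13315 tested genes, which yields high values by chance alone, and they were not tested. The libraries without a Dnm3os count were kept in it.

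The partners, inputs, and targets of these factors were taken from 9 lists of 123 genes, of which 95 passed the filter. At 1 Hz, 11 rose and 9 fell, which is 21.1% of the 95 against 14.9% of all tested genes. At 4 Hz, 12 rose and 12 fell, or 25.3% against 25.1%. At 10 Hz, edgeR, DESeq2, and limma each called 0 of them, and 8 had an unadjusted p under 0.05 in edgeR. The share of all tested genes with such a p is not given here, so nothing is read from the 8. The median log2 fold change of the 95 was −0.01 at 1 Hz and 0.00 at 4 Hz, against 0.04 and 0.06 for all tested genes. On log2(TPM + 1) the counts were 5 higher and 13 lower at 1 Hz and 4 higher and 25 lower at 4 Hz. All 13422 genes on that scale also leaned to lower, with 198 higher and 1710 lower at 1 Hz and 333 and 3166 at 4 Hz.

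Among family relatives, Snai3 rose from 1.68 ± 0.404 CPM in controls to 3.41 ± 0.527 at 4 Hz (log2 fold change 1.03, SE 0.25, adjusted p = 0.00142), with all 6 libraries above every control. At 1 Hz it was at 2.75 ± 1.10 CPM (0.75, SE 0.25, adjusted p = 0.0209), a call lost without control replicate 4 or without 1 Hz replicate 4 or 6 (0.29 to 0.64 over the 6 alternatives that lost it). On log2(TPM + 1) the 4 Hz value was 0.49 and not called. Scrt1 and Scrt2, neural relatives, had at most 1 count in any library. None of the 7 E proteins and Id inhibitors, the partners of Twist and those that block them, was called by edgeR against controls at any frequency. Within the fold limit, at an edgeR adjusted p under 0.05, Tcf3 was lower at 1 Hz (−0.22, SE 0.07) and Tcf4 higher (0.22, SE 0.08). At 4 Hz Tcf3 (−0.17, SE 0.07) and Tcf12 (−0.34, SE 0.09) were lower in the same way.

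Of 10 corepressors through which Snail and Zeb factors act, Sin3a rose at both frequencies, from 21.8 ± 1.78 CPM in controls to 38.1 ± 6.70 at 1 Hz (log2 fold change 0.81, SE 0.10, adjusted p = 1.0e-06) and 37.0 ± 3.51 at 4 Hz (0.77, SE 0.10, adjusted p = 9.0e-07). In limma on the TPM scales Sin3a at 4 Hz was at 0.38 to 0.42 and not called. The deacetylase gene Hdac1 fell at 4 Hz by 0.53 on the log2 scale (SE 0.11, adjusted p = 0.000324). At 1 Hz it was lower by less than the fold limit (−0.38, SE 0.11). The other 8 were not called. Some of these 8 had an edgeR adjusted p under 0.05 at 4 Hz within the fold limit. They were Hdac2 (−0.35, SE 0.06), Rcor1 (−0.44, SE 0.11), Kdm1a (−0.21, SE 0.06), and Suz12 (−0.27, SE 0.09), all lower, and Eed (0.21, SE 0.09), higher.

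Of 12 inputs of the TGF-beta pathway, which is known to induce Snail and Zeb genes, 3 were called at each of 1 and 4 Hz. The receptor gene Tgfbr2 fell from 156 ± 9.28 CPM in controls to 94.6 ± 10.9 at 1 Hz and 95.3 ± 6.77 at 4 Hz, with log2 fold changes of −0.72 (SE 0.08, adjusted p = 9.5e-08) and −0.71 (SE 0.08, adjusted p = 5.9e-08). Tgfbr3, the coreceptor betaglycan, rose by 0.78 (SE 0.13) and 0.72 (SE 0.13). Smad7, an inhibitor of the pathway that it induces, rose by 0.65 at 1 Hz (SE 0.24, adjusted p = 0.0409) and by 0.78 at 4 Hz (SE 0.24, adjusted p = 0.0106), and its call at 1 Hz was lost in 14 of 22 alternatives (0.36 to 0.65 in these), among them those without control replicate 3, 4, or 5 or without 1 Hz replicate 1, 2, 3, 4, or 6. The ligand genes Tgfb1, Tgfb2, and Tgfb3 were not called.

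Of 14 other mesenchymal transcription factors tested, Runx1 fell at 1 Hz (−0.66, SE 0.11) and 4 Hz (−0.67, SE 0.11), while Msx1 (0.63, SE 0.15, and 0.70, SE 0.15) and Osr1 (0.94, SE 0.24, and 1.66, SE 0.23) rose. Osr1, a factor of connective tissue progenitors, had 1.14 ± 0.424 CPM in controls and 3.68 ± 1.19 at 4 Hz. Foxc2 (−0.67, SE 0.15) and, outside the naming rule, Foxf1 (−0.73, SE 0.28) fell at 4 Hz. The adjusted p was 0.0294 for Foxf1 and at most 0.00327 for the others.

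Of 27 mesenchymal and matrix genes tested, 2 rose and 3 fell at each of 1 and 4 Hz, and 22 were not called. The matricellular genes Ccn1 and Ccn2 rose. Ccn2 went from 585 ± 107 CPM in controls to 1396 ± 299 at 1 Hz and 1183 ± 280.0 at 4 Hz, with log2 fold changes of 1.25 (SE 0.17) and 1.02 (SE 0.17), while Ccn1 had 1.56 (SE 0.49) and 1.98 (SE 0.50). The call of Ccn1 at 1 Hz was lost with a replicate block and without the 4 libraries of low TMM factor (1.44 to 1.54). Cdh2, or N-cadherin, which myoblasts use for contact and which Snail and Zeb factors are known to go along with, fell by 0.84 (SE 0.07) and by 0.83 (SE 0.07). Pdgfrb fell from 32.8 ± 8.05 CPM in controls to 15.5 ± 6.05 at 1 Hz and 11.6 ± 1.67 at 4 Hz (adjusted p = 0.000327 and 7.7e-06).

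Only 4 of 20 epithelial genes had enough counts to be tested. Jup, or plakoglobin, fell at 1 and 4 Hz (−0.69, SE 0.08, and −0.63, SE 0.08), as did Tjp1 of tight junctions (−0.60, SE 0.17, and −0.81, SE 0.17), and the keratin gene Krt19 rose at 4 Hz (0.68, SE 0.10). Jup and Tjp1 are also expressed outside epithelia. Cdh1, the best known target of Snail and Zeb factors, was at 2.41 ± 0.533 CPM in controls and was not called (−0.39, SE 0.21, at 1 Hz and −0.22, SE 0.21, at 4 Hz).

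Of 17 reported targets of miR-199a and miR-214 tested, 3 rose and 2 fell at each of 1 and 4 Hz, with a median log2 fold change of 0.04 and 0.00. Fzd4, a Wnt receptor, rose by 0.84 (SE 0.11) at 1 Hz, and Jag1, a Notch ligand, by 1.06 (SE 0.13) at 4 Hz, and both were called at the other of these frequencies too. Sufu, an inhibitor of Hedgehog signalling, fell by 0.66 (SE 0.10) and by 0.81 (SE 0.10). Xbp1 rose by 0.51 (SE 0.06) and by 0.54 (SE 0.06), close to the fold limit, and its calls were lost in 7 and 4 of 22 alternatives (down to 0.22 and 0.19), among them those without control replicate 3 and, at 1 Hz, without 1 Hz replicate 3 or 6. Igf1 fell by 0.93 (SE 0.32) at 1 Hz and Met by 0.55 (SE 0.11) at 4 Hz, calls that were both lost without control replicate 2, and that of Igf1 also without 1 Hz replicate 4 (−0.81 to −0.59 for Igf1 and −0.49 for Met). Igf1 was low, at 1.55 ± 0.789 CPM in controls and 0.845 ± 0.324 at 1 Hz, where 2 of 6 libraries lay below every control. Its log2 fold change at 4 Hz was −0.12 (SE 0.30), not called.

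**Figure D5:**
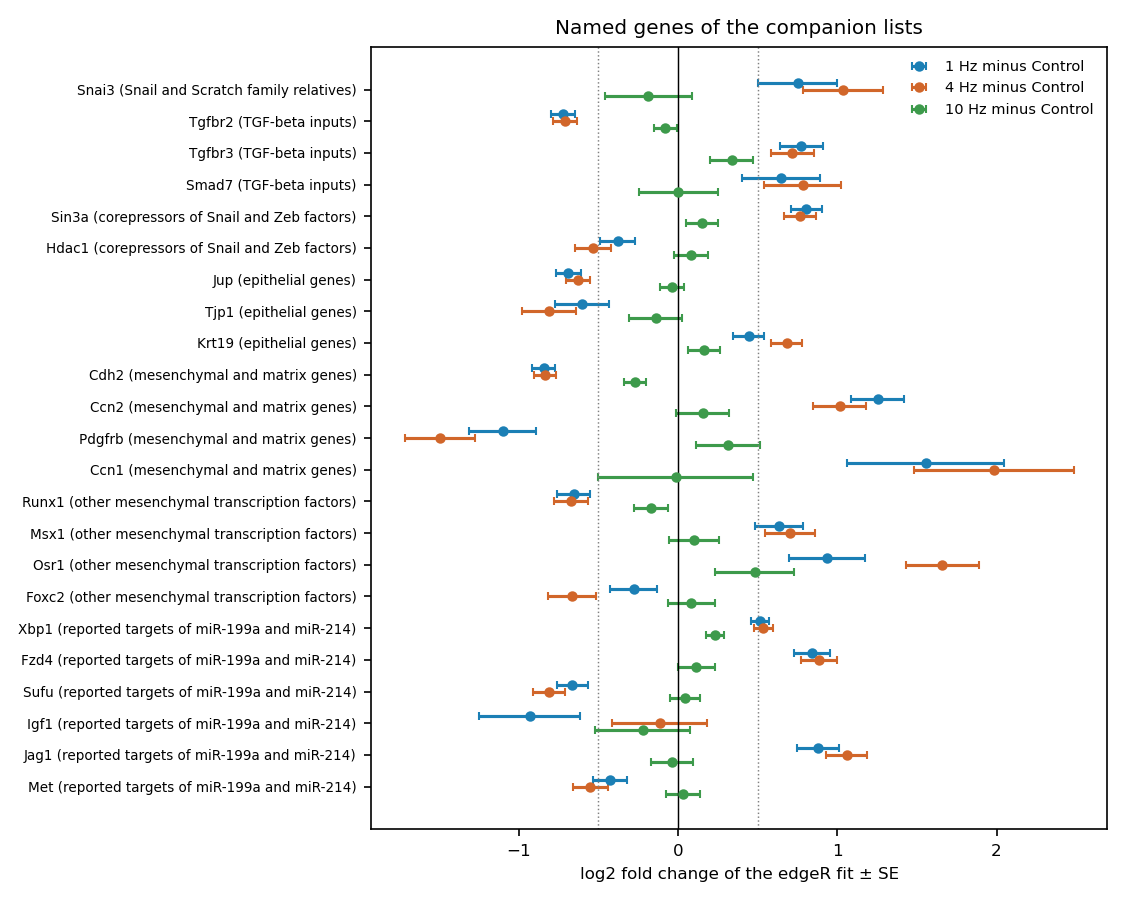
Log2 fold change against the unstimulated control (x axis, edgeR fit of all tested genes, points with bars of ± SE) at 1, 4, and 10 Hz of the 23 companion genes named by rule, with the list of each in brackets. Dotted lines mark ±0.5, and the 10 Hz points of all 23 genes lie inside them, while Ccn1 reaches 1.98 and Pdgfrb −1.50 at 4 Hz.

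The tissues carried the marker genes of myotubes. The summed level of 9 of them ran from 13301 to 16836 CPM in controls, from 10902 to 20701 at 1 Hz, from 15808 to 19502 at 4 Hz, and from 12297 to 15370 at 10 Hz. Within that list Myog fell by 1.34 (SE 0.07) at 1 Hz and by 1.47 (SE 0.07) at 4 Hz, while the contractile genes Tnni2 (0.57, SE 0.17) and Mylpf (0.57, SE 0.17) rose at 4 Hz, and the other 6 were not called. The summed level of 7 genes of myoblasts and cycling cells ran from 35.3 to 56.2 CPM in controls, 52.1 to 82.6 at 1 Hz, 48.9 to 59.8 at 4 Hz, and 44.5 to 67.4 at 10 Hz, with Pax7 lower at 1 and 4 Hz (−1.58, SE 0.18, and −1.53, SE 0.18) and Myf5 higher (1.32, SE 0.13, and 1.17, SE 0.13). Of the cell cycle genes in that list, Cdk1 rose at both (0.62, SE 0.12, and 0.51, SE 0.13), Mki67 (−1.15, SE 0.43) and Ccnb1 (−1.06, SE 0.32) fell at 4 Hz, and Top2a and Birc5 were not called. All 4 endothelial and all 4 fat cell genes stayed under 1 CPM in every library, and so did Ptprc and Adgre1 among 4 immune genes, where Cd68 made up nearly the whole sum of 39.6 to 73.2 CPM. Among Schwann and neural genes Sox10 stayed under 1 CPM, and Tubb3, which muscle also expresses, fell at 1 and 4 Hz (−0.82, SE 0.11, and −0.81, SE 0.11). The part of these shifts in the values of Dnm3os and the Snail and Zeb genes was not tested.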

How the data were processed

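The 24 libraries of the 60-min experiment were grouped by their labels into the unstimulated control and 1, 4, and 10 Hz. Per the study's methods, the authors ran nf-core/rnaseq against GRCm39 with Ensembl genes, and the submitters' processing notes name STAR and Salmon. The deposited estimated counts are per gene and not normalized, and 6.15% of them are not whole. The TPM values deposited by the authors are divided by transcript length and scaled per library. Total estimated counts were 8052369 to 18159144, and the limits given for counts of 0 cover counting error only.

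Counts were rounded and fitted in edgeR 4.0.16 (R 4.3.3; filterByExpr with minimum count 10 and total 15, TMM, robust quasi-likelihood F test, 1 fit with a mean per group, biological coefficient of variation 14.8%). Log2 CPM used a prior count of 2. Each SE of the edgeR fit is the absolute log2 fold change divided by the square root of its F statistic, so it is derived from the test. The fit was checked on simulated counts with known changes. Alternatives were RLE or upper-quartile factors, no filter, at least 50 counts in 6 libraries, only the groups compared, a replicate block, DESeq2 1.42.0, limma 3.58.1 on log2(TPM + 1) and log2(TPM + 0.1) keeping genes that reached 1 TPM in 6 libraries, no fold limit, and each library left out. The fit without 4 libraries was chosen after seeing the data. Correlations used 100000 permutations. Named genes are all members, up to 2 genes per companion list, direction, and frequency with the smallest p among those called, the 5 genes most like Dnm3os by each measure, and markers. The members and all lists were chosen with earlier results of these data known. Positions are from GENCODE M39 on GRCm39. For 1 gene of the Schwann and neural marker list no result is reported here.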

Additional observations from a re-analysis of the deposited data

Results flagged for a closer look

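In 64 groups of 6 libraries (8 members, 4 conditions, CPM and TPM), 3 values lay apart from the rest of their group by Dixon's criterion at the 95% level, and chance gives about 1 in 20. The TPM of Dnm3os in control replicate 2 was 1.87, against 0.527 to 0.859 in the other controls, and its CPM was also the highest of the controls at 6.36. The TPM of Dnm3os in 1 Hz replicate 4 was 0.840 (at most 0.173 in the others), while its CPM of 0.671 lay within the group. Both libraries are among the 6 in which reads were assigned to shorter Dnm3os transcripts. The CPM of Twist2 in 1 Hz replicate 6 was 3.41, against 4.74 to 5.42 in the other 1 Hz libraries, and this library has a TMM factor of 0.931.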

How the results depend on the processing

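Over the alternatives run, the log2 fold change of Dnm3os stayed between −2.95 and −2.50 at 1 Hz, −3.82 and −3.28 at 4 Hz, and −0.72 and −0.45 at 10 Hz. It has no value under the filter of 50 counts in 6 libraries or in limma on TPM. With that filter 0 members were past the call rule at 1 Hz, against 1, and without a fold limit 4 were. The share of all tested genes past the rule without a fold limit is not given here, so nothing is read from the 4. Without the 4 libraries with TMM factors under 0.95, 2 members were past the rule at 1 Hz (Dnm3os and Zeb2). With upper-quartile factors Snai1 at 4 Hz, at −0.49, was no longer past the rule. Leaving out 1 library gave 1 to 2 at 1 Hz (Snai1 added without control replicate 2, Zeb2 added without 1 Hz replicate 4) and 2 to 4 at 4 Hz (Snai1 lost without control replicate 4 or 5, Zeb2 added without control replicate 2 or 4 Hz replicate 4). In limma on log2(TPM + 1) the called members were Snai1 at 1 Hz and Snai1 and Prrx1, both lower, at 4 Hz. Of all 13422 genes on that scale, 1908 were called at 1 Hz (1710 lower) and 3499 at 4 Hz (3166 lower).

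Companion genes past the call rule numbered 42 at 1 Hz and 47 at 4 Hz without a fold limit, 13 (7 higher, 6 lower) at 1 Hz without those 4 libraries, and 17 to 21 and 22 to 26 with 1 library left out. For the counts without a fold limit the share of all tested genes is again not given, so nothing is read from them. Of 39 named calls of companion genes, 22 held in every alternative and 0 changed sign. Without the 4 libraries the calls of Tjp1 (−0.37), Msx1, Snai3, Smad7, Ccn1, and Igf1 at 1 Hz and of Met at 4 Hz were lost. In limma on both TPM scales those of Snai3 and Osr1 at 1 Hz, Sin3a and Krt19 at 4 Hz, and Tgfbr3, Smad7, Msx1, and Xbp1 at both were lost. Correlations of same-numbered libraries, with condition means removed, ran from −0.33 to 0.24. The labels do not say whether the numbers pair libraries, and such correlations cannot settle it. With the replicate block 1, 3, and 0 members and 18, 24, and 0 companion genes were past the rule at 1, 4, and 10 Hz. Counts at 10 Hz were 0 in every alternative, as were adjusted correlations with Dnm3os. Counts of 0 to 8 limit the precision of Dnm3os at 4 Hz.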
